A study of Mus musculus with 4 samples.

Results

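The genes described are 9 members of 4 families that are known for high activity in the embryo and as targets of the let-7 microRNAs: the high mobility group genes Hmga2 and Hmga1, the mRNA-binding proteins Igf2bp1, Igf2bp2 and Igf2bp3, the let-7 inhibitors Lin28a and Lin28b, and the DNA-binding proteins Arid3a and Arid3b. They were taken by gene symbol and are 9 of the 56691 genes in the expression table. Of the 9 genes, 7 passed the filter on low counts and were among the 17188 genes tested. The genes were taken by family name and chosen by their counts and FPKM in ATO against PBS sarcomas, which were already known, so the differences of these 9 genes between the groups are given as a description, with no test.

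RNA-seq had been performed on 4 mouse sarcomas, and the question put to it was how the transcriptomes of ATO-treated and control tumours differed. The series' own design text speaks of tumours before and after ATO, whereas the labels give separate ATO and PBS groups, and the groups here follow the labels. All 4 tumours arose in W/+ mice. By genotype these mice carry 1 p53 allele with the mutation labelled p53R282W (numbered as in the human protein) and 1 normal allele. Whether the tumours kept the normal allele is not given in the sources used here. ATO (arsenic trioxide) is one of several p53 rescue compounds the study compared in cells, and the one given to these mice. The sarcomas ATO-1 and ATO-2 came from mice that, per the study's methods, drank ATO from young adulthood until death, and PBS-1 and PBS-2 came from mice whose treatment is labelled PBS. W/+ mice developed angiosarcomas, soft tissue sarcomas and osteosarcomas, and the labels give neither the type of each tumour, nor the age of each mouse, nor whether each tumour came from a different mouse. The labels also attach a protocol for differentiating cultured cells (dexamethasone, isobutylmethylxanthine and insulin) to all 4 samples. p-values measure only the spread between these samples.

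Hmga2 and Hmga1 are small proteins that bend AT-rich DNA and are abundant in the early embryo and in many mesenchymal tumours. The Igf2bp proteins bind and stabilise mRNAs, including Igf2 mRNA. let-7 microRNAs accumulate as tissues mature and lower the mRNAs that carry matches to their seed in the 3′ UTR, while Lin28a and Lin28b block the maturation of let-7.

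The mature let-7 sequences are shown because their shared seed, bases 2 to 8 counted from the 5′ end, defines the matches counted in the 9 genes. RefSeq (GRCm38.p6) lists 11 mature names of the family, and the seed is in capitals.
let-7a-5p: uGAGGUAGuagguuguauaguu
let-7b-5p: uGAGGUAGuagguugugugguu
let-7c-5p: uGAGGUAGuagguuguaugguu
let-7d-5p: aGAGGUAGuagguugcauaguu
let-7e-5p: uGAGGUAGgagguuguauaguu
let-7f-5p: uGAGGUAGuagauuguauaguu
let-7g-5p: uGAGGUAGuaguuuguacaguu
let-7i-5p: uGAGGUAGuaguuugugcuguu
miR-98-5p: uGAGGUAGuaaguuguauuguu
let-7k: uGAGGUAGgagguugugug
let-7j: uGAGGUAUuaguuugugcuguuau
The first 10 share 1 seed and let-7j has another. let-7 paired with this seed reads CTACCTC on the mRNA strand (the 7-mer), or CTACCTCA where the mRNA base opposite the first microRNA base is A (the 8-mer).

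Matches were counted in the longest annotated 3′ UTR of each gene (GENCODE M21, GRCm38). The 4 sites of Hmga2 are shown because it had the lowest fold change, with 1 site each of Hmga1 and Igf2bp2, which were also lower, and of Igf2bp1 and Lin28b, which have as many matches as Hmga2. Each is 30 bases of the mRNA strand, written as DNA with the match in capitals.
Hmga2 site 1: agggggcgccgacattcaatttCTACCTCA
Hmga2 site 2: caataatccccactcctcaataCTACCTCt
Hmga2 site 3: ggacttcctgatttgcaaggaaCTACCTCc
Hmga2 site 4: gttgtacaatcaaaacacactaCTACCTCt
Hmga1 site 1: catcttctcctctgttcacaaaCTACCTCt
Igf2bp2 site 1: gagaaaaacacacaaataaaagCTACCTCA
Igf2bp1 site 1: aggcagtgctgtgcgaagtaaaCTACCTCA
Lin28b site 1: tcccttcacccgggcgggaagtCTACCTCA
The Hmga2 sites lie in its 3′ UTR, which is exonic, on the minus strand of GRCm38, at chr10:120364224-120364253, chr10:120362987-120363016, chr10:120362549-120362578 and chr10:120361691-120361720. The Hmga1 site is at chr17:27563270-27563299 on the plus strand. The others are on the minus strand, at chr16:22059473-22059502 for Igf2bp2, chr11:95961778-95961807 for Igf2bp1 and chr10:45381022-45381051 for Lin28b, each in the 3′ UTR.

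Each of the 9 genes had at least 1 match, a property of 1898 of 21037 genes with an annotated 3′ UTR (9.02%). Hmga2 (3014 bases of 3′ UTR), Lin28b (4445 bases) and Igf2bp1 (6337 bases) had 4 matches each, and 32 of the 21037 genes (0.152%) had 3 or more. Lin28a and Arid3a had 2 matches each, and Hmga1, Igf2bp2, Igf2bp3 and Arid3b had 1 each. These genes are known as let-7 targets, so their matches were not an independent observation. Their 3′ UTRs were long, with a median of 2775 bases against 960 bases over all genes. Among the 2439 genes with a 3′ UTR of like length to that of Hmga2, 16.1% had a match and 0.123% had 4 or more. The 8-mer was present in 7 of the 9 genes and in 3.06% of all genes. The single Hmga1 match depended on the transcript, since the 3′ UTR of the Hmga1 transcript with the longest coding sequence was 111 bases long and held 0 matches. A match describes the sequence and does not show that the site was used in these tumours.

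**Figure D1:**
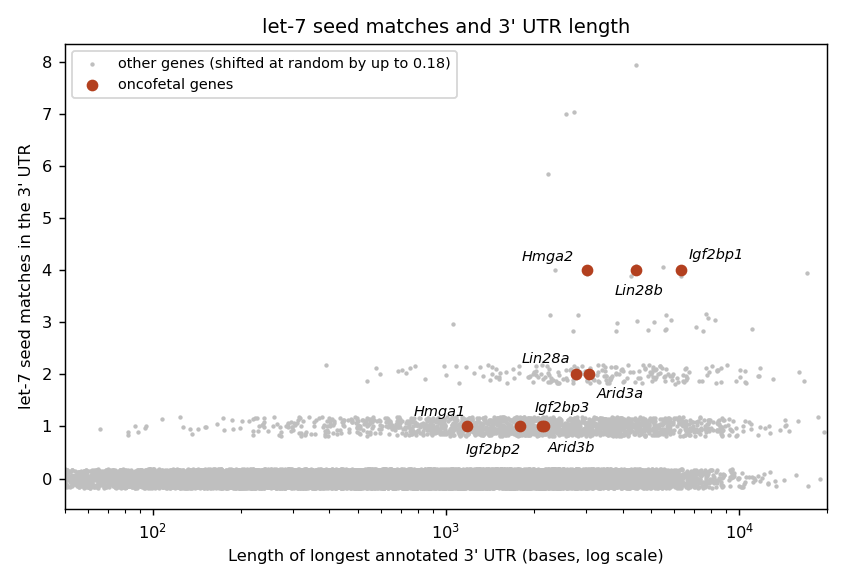
Number of let-7 seed matches (y axis, 7-mers) against the length of the longest 3′ UTR (x axis, bases, log scale), 1 grey point per gene, shifted vertically at random by up to 0.18, with the 9 oncofetal genes in red. Hmga2, Lin28b and Igf2bp1 stand at 4 matches, and 367 genes with a 3′ UTR under 50 or over 20000 bases are not drawn.

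Sequencing gave 15259695 to 18134000 counts per sarcoma. Genes of the mitochondrial genome took 14.7% of the counts of ATO-2 and at most 2.59% in each of the remaining 3 tumours. With edgeR's quasi-likelihood test and Benjamini-Hochberg adjustment, 0 of 17188 genes (0.0%) passed an adjusted p of 0.05, with 1463 genes (8.51%) at an unadjusted p under 0.05. DESeq2 called 753 of 18295 genes (4.12%), and edgeR without the filter on low counts called 541 of 30859 (1.75%). The biological coefficient of variation within a group was 62.5%.

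Hmga2 (ENSMUSG00000056758, chr10:120361275-120476469, minus strand, GRCm38) was abundant in both PBS sarcomas and nearly absent from both ATO sarcomas. The reads assigned to Hmga2 numbered 3293 in PBS-1, 2214 in PBS-2, 9 in ATO-1 and 13 in ATO-2. Per length, its level was 27.84 FPKM in PBS-1, 18.19 in PBS-2, 0.07 in ATO-1 and 0.13 in ATO-2. The groups did not overlap, and the lower PBS sarcoma was far above the higher ATO sarcoma. The exact Poisson 95% intervals of the ATO counts, 4.12 to 17.1 for ATO-1 and 6.92 to 22.2 for ATO-2, cover counting error only. Normalised with TMM factors, Hmga2 was at 142 ± 43.6 CPM (SD, n = 2) in PBS and 0.768 ± 0.387 CPM (SD, n = 2) in ATO sarcomas, which is 185-fold lower. The fitted log2 fold change was -7.55 ± 0.68 (SE), and -8.15 without ATO-2. In a bulk tumour, fewer cells that express Hmga2 and less Hmga2 RNA per cell cannot be told apart.

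Among the 17188 genes tested, only 9 had a lower fitted log2 fold change than Hmga2, which ranked 10th from the lowest. Among the 2140 genes with a mean of at least 100 CPM in PBS sarcomas it ranked 2nd, after Glp1r (log2 fold change -8.00), which encodes the receptor for glucagon-like peptide. In PBS-1 and PBS-2 the FPKM of Hmga2 exceeded that of 96.9% and 94.5% of the rows of the table, and in ATO-1 and ATO-2 that of 59.8% and 65.5%.

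Transcripts that overlap or resemble Hmga2 had far fewer counts than Hmga2 in the PBS sarcomas. The opposite-strand gene 1700006J14Rik, which overlaps Hmga2, had 43 and 27 counts in PBS-1 and PBS-2 and 47 and 10 in ATO-1 and ATO-2, and Mir763, within Hmga2 on the same strand, had 25 counts in PBS-1 and 0 elsewhere. Whether counting used the strand is not given in the sources used here. The processed copy Hmga2-ps1 had 162 and 87 counts in the PBS sarcomas and 191 and 80 in the ATO sarcomas, with overlapping groups (log2 fold change 0.39 ± 0.67, SE). The counts of Hmga2-ps1 in ATO-1 and ATO-2 were therefore above those of Hmga2 itself in the same tumours, and how reads that fit both were divided is not stated.

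The neighbours of Hmga2 were looked at after its values were seen, and were given no test of their own. Within 1 Mb of its start by the deposited positions, 10 other protein-coding genes were among those tested. Of these, 8 were fitted higher and 2 lower in ATO sarcomas. Their log2 fold changes had a median of 0.48. In 0 of these 10 were both ATO sarcomas below both PBS sarcomas. The nearest, Llph, had 407 and 707 counts in PBS-1 and PBS-2 and 512 and 447 in ATO-1 and ATO-2 (log2 fold change 0.16 ± 0.46, SE). Msrb3, a methionine sulfoxide reductase on the other side, had 1267 and 1265 counts in the PBS sarcomas and 2077 and 736 in the ATO sarcomas. Wif1, a secreted WNT inhibitor, had the highest value, 1730 counts in ATO-1 against 14 to 74 in the other tumours.

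**Figure D2:**
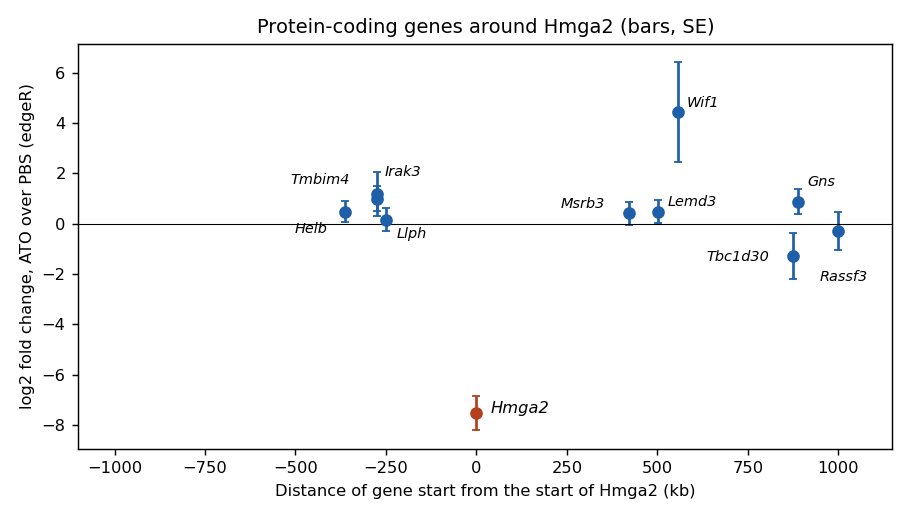
Fitted log2 fold change, ATO over PBS (y axis, bars SE), of the protein-coding genes tested within 1 Mb of Hmga2, against the distance of each gene's start from that of Hmga2 (x axis, kb, along the plus strand). Hmga2 stands at -7.55 and its 10 neighbours lie between -1.28 and 4.43.

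Hmga1 (ENSMUSG00000046711, chr17:27556497-27563674, plus strand), the second HMGA gene, was the most abundant of the 9 genes and was also lower in both ATO sarcomas. It had 6678 counts in PBS-1, 2785 in PBS-2, 842 in ATO-1 and 712 in ATO-2, or 179.94, 72.93, 21.85 and 21.96 FPKM. The groups did not overlap, the ATO sarcomas were close to each other, and the PBS sarcomas differed by more than the distance of PBS-2 from the ATO values. The mean was 246 ± 149 CPM in PBS and 51.7 ± 7.64 CPM in ATO sarcomas (SD, n = 2 each), 4.76-fold lower, with a fitted log2 fold change of -2.25 ± 0.60 (SE). Without PBS-1 it was -1.44.

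The near-identical intronless gene Hmga1b can share reads with Hmga1. It had 669, 251, 71 and 55 counts in PBS-1, PBS-2, ATO-1 and ATO-2, between 7.17% and 9.11% of the counts of both genes together. The log2 fold change of the summed counts was -2.27, against -2.25 for Hmga1 alone. On the opposite strand, AI413582 overlaps Hmga1 with 241, 224, 133 and 171 counts and Gm49774 with 80, 33, 22 and 17.

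Hmga2 was lower in ATO sarcomas by a larger fold than Hmga1, so the balance of the HMGA genes was not alike in the groups. The ratio of Hmga1 to Hmga2 in FPKM was 6.46 in PBS-1, 4.01 in PBS-2, 312 in ATO-1 and 169 in ATO-2. The ATO-1 and ATO-2 ratios are imprecise, since they divide by 0.07 and 0.13 FPKM, from 9 and 13 counts of Hmga2.

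Igf2bp2 (ENSMUSG00000033581, chr16:22059009-22163299, minus strand), a known Hmga2 target gene, was the third most abundant of the 9 genes in PBS sarcomas and was low in ATO sarcomas. Its counts were 1510 in PBS-1, 1152 in PBS-2, 28 in ATO-1 and 103 in ATO-2, or 11.68, 8.66, 0.21 and 0.91 FPKM. The groups did not overlap, and ATO-1 was the lowest. Means were 68.7 ± 15.1 CPM in PBS and 4.90 ± 4.75 CPM in ATO sarcomas (SD, n = 2 each), 14.0-fold lower, and the fitted log2 fold change was -3.82 ± 0.93 (SE). It was -5.47 without ATO-2 and -3.07 without ATO-1. It ranked 121st from the lowest of the 17188 genes.

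Igf2bp1 (ENSMUSG00000013415, chr11:95957163-96005940, minus strand), the family member best known from fetal tissue and from control of the Myc mRNA, was present in a single tumour. It had 3 counts in PBS-1, 10 in PBS-2, 236 in ATO-1 and 6 in ATO-2, or 0.02, 0.06, 1.34 and 0.04 FPKM. ATO-1 stood apart, and the other ATO sarcoma was within the range of the PBS sarcomas. It did not pass the filter on low counts and has no value in the edgeR test.

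Igf2bp3 (ENSMUSG00000029814, chr6:49085223-49214957, minus strand), another fetal family member, was low everywhere. It had 18 counts in PBS-1, 102 in PBS-2, 12 in ATO-1 and 9 in ATO-2, or 0.13, 0.70, 0.08 and 0.07 FPKM. The groups did not overlap, but the Poisson 95% interval of PBS-1 (10.7 to 28.4 counts) covers the count of ATO-1. The fitted log2 fold change of -2.13 ± 1.05 (SE) rested on PBS-2, without which it was -0.46. The opposite-strand gene Malsu1, which overlaps Igf2bp3, had 155 to 381 counts, more than Igf2bp3 in each tumour.

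The 3 Igf2bp genes together reached 11.83 FPKM in PBS-1, 9.42 in PBS-2, 1.63 in ATO-1 and 1.02 in ATO-2. Igf2bp2 made up 98.7%, 91.9% and 89.2% of this sum in PBS-1, PBS-2 and ATO-2, but 12.9% in ATO-1, where Igf2bp1 was the main member.

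Lin28a (ENSMUSG00000050966, chr4:134003330-134018841, minus strand), which binds the let-7 precursor and blocks its cleavage, differed more within than between the groups. Its counts were 14 in PBS-1, 88 in PBS-2, 91 in ATO-1 and 16 in ATO-2, or 0.20, 1.23, 1.26 and 0.26 FPKM. Each group held 1 higher and 1 lower tumour, and the groups overlapped. The fitted log2 fold change was 0.28 ± 1.18 (SE), and it was 2.08 without PBS-2 and -1.02 without ATO-1. Lin28b (ENSMUSG00000063804, chr10:45376620-45486395, minus strand), which blocks let-7 in the nucleus, had 1 count in PBS-1 and 0 in the other 3 tumours. By the rule of 3 counts a count of 0 allows 0.165 to 0.197 CPM (the upper end of the exact Poisson 95% interval is 3.69 counts), and no fold can be given.

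Arid3a (ENSMUSG00000019564, chr10:79927043-79955018, plus strand), a transcription factor of early B cells and of early development, was only slightly lower in ATO sarcomas. It had 509 counts in PBS-1, 787 in PBS-2, 447 in ATO-1 and 293 in ATO-2, or 5.24, 7.87, 4.43 and 3.45 FPKM. The groups did not overlap, but their distance was small, with a log2 fold change of -0.47 ± 0.42 (SE). Arid3b (ENSMUSG00000004661, chr9:57790353-57836793, minus strand), its relative and partner, had 130, 264, 219 and 132 counts in the same order, or 0.93, 1.84, 1.51 and 1.08 FPKM. Its groups overlapped and the log2 fold change was 0.17 ± 0.58 (SE), and -0.24 without PBS-1. Arid3c, the remaining gene of the family, had at most 2 counts in any tumour.

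**Figure D3:**
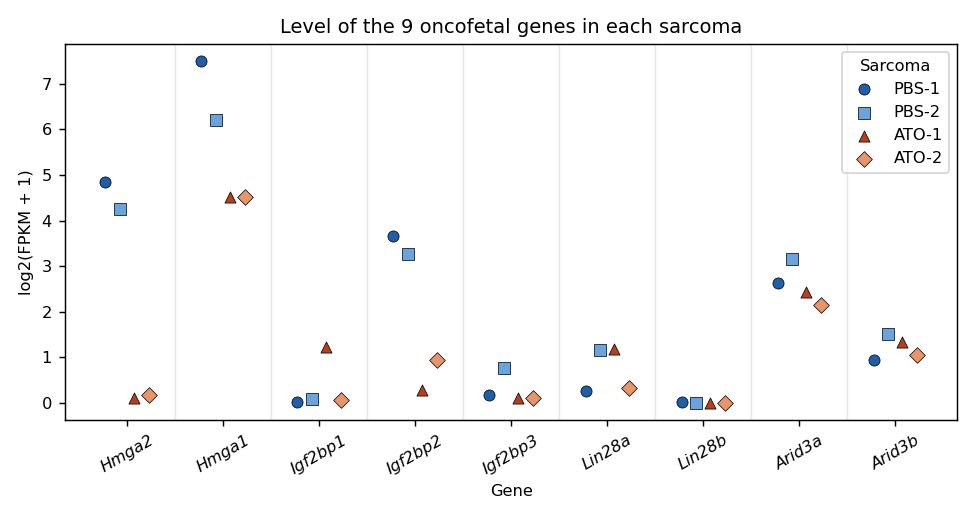
Level of each of the 9 genes, as log2(FPKM + 1) (y axis), with 1 point per sarcoma (circles and other markers by tumour, 2 PBS and 2 ATO). Hmga2, Hmga1 and Igf2bp2 have both PBS sarcomas well above both ATO sarcomas, Igf2bp1 is raised in ATO-1 only, and Lin28a is higher in PBS-2 and ATO-1.

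Per length, the order of the genes differed between the groups. In PBS sarcomas the mean FPKM ran from Hmga1 (126) to Hmga2 (23.0), Igf2bp2 (10.2), Arid3a (6.56), Arid3b (1.39), Lin28a (0.715), Igf2bp3 (0.415), Igf2bp1 (0.040) and Lin28b (0.0050). The ranges of Arid3b and Lin28a, and of Lin28a and Igf2bp3, overlapped, and those of the other neighbours in this order did not. In ATO sarcomas the order was Hmga1 (21.9), Arid3a (3.94), Arid3b (1.30), Lin28a (0.76), Igf2bp1 (0.69), Igf2bp2 (0.56), Hmga2 (0.10) and Igf2bp3 (0.075), with Lin28b at 0. The ranges of neighbours from Arid3b to Igf2bp2, and those of Hmga2 and Igf2bp3, overlapped. Hmga2 thus moved from second to seventh place, while Hmga1 was first in both groups.

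Of the 7 genes tested, 5 had both ATO sarcomas below both PBS sarcomas (Hmga2, Hmga1, Igf2bp2, Igf2bp3 and Arid3a) and 0 had both above. Of all genes tested, 20.2% had both below and 19.7% both above, so 39.9% had groups that did not overlap. edgeR called 0 of the 7. Of the 8 genes to which it gave an adjusted p, DESeq2 called Hmga2 and Igf2bp2 lower and 0 higher, where it called 0.869% of genes lower and 3.25% higher. edgeR without the filter called the same pair of the 9 lower and 0 higher, where it called 0.282% of genes lower and 1.47% higher. The choice of the genes used this contrast, so nothing is read from these counts.

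**Figure D4:**
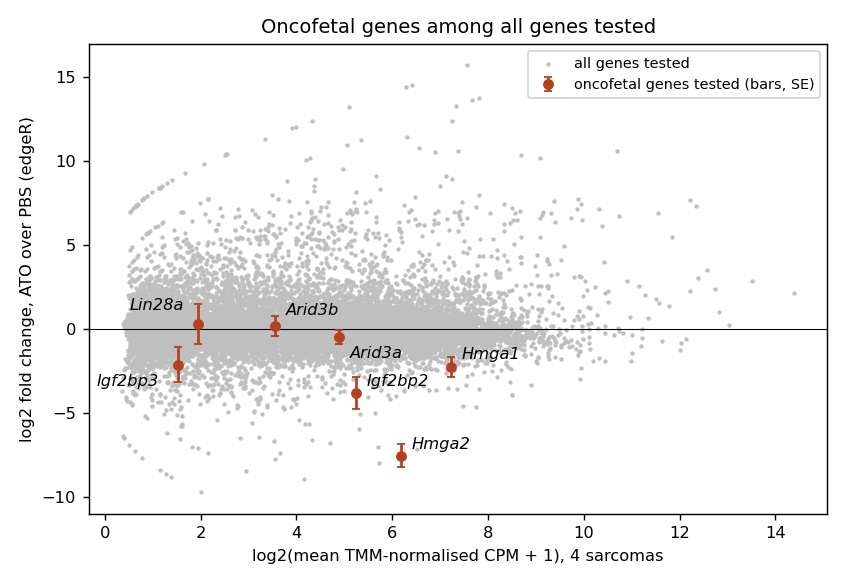
Fitted log2 fold change, ATO over PBS (y axis), against log2 of the mean TMM-normalised CPM plus 1 over the 4 sarcomas (x axis), with every gene tested in grey and the 7 tested oncofetal genes in red (bars, SE). Hmga2 is at the lower edge at -7.55, followed by Igf2bp2 at -3.82, and Arid3a, Arid3b and Lin28a lie near 0.

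Genes with a profile like that of Hmga2 were sought among all genes tested, by the smallest root mean square difference between log2(CPM + 1) profiles centred on their own means over the 4 sarcomas. The nearest was Glp1r, at 0.121 on the log2 scale, with 2505 and 1467 counts in the PBS sarcomas and 2 and 9 in the ATO sarcomas. Crmp1, a cytoskeletal protein of neurons, followed at 0.920 (1331, 1616, 17 and 45 counts in the order PBS-1, PBS-2, ATO-1, ATO-2). Fendrr, a long non-coding RNA of the embryonic mesoderm, was at 1.04 (879, 426, 12 and 8 counts), Gm15446 at 1.29 and the imprinted gene Mest at 1.31. Igf2bp2 was the 7th nearest and Hmga1 the 111th. With log2(FPKM + 1) the 5 nearest were Glp1r, Nsg1, Gap43, Fendrr and Crmp1, of which 3 were shared, and Igf2bp2 was the 11th. With 4 tumours, the likeness is a description of the same PBS to ATO step.

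The mature let-7 RNAs were not measured. Libraries were made from mRNA, and 11 of the 12 let-7 hairpin genes in the table were at 0 in all 4 sarcomas, the other being Mirlet7c-1 with 7 counts in PBS-2. A count in a hairpin or host gene does not give the amount of the mature microRNA. Of the 9 host genes matched by position, Mir100hg, which holds let-7a-2, was at 11.98 FPKM in PBS-1, 1.49 in PBS-2, 1.86 in ATO-1 and 0.60 in ATO-2. PBS-1 was high and the groups overlapped (log2 fold change -2.26 ± 1.12, SE, edgeR adjusted p = 0.633). 6720427I07Rik, which holds let-7a-1, let-7d and let-7f-1, was level, at 2.12, 1.82, 1.95 and 1.58 FPKM in the same order (log2 fold change 0.11 ± 0.50, SE). Wdr82 (let-7g) had 18.01 and 14.22 FPKM in PBS against 7.71 and 9.87 in ATO sarcomas, and Spaca6 (let-7e) 9.05 and 8.62 against 5.57 and 5.09. Huwe1 (let-7f-2 and miR-98) was at 9.37 and 11.20 FPKM in PBS and 15.98 and 6.93 in ATO sarcomas, and D630033A02Rik (let-7i) at 2.47 and 1.73 against 3.24 and 1.86, with log2 fold changes of 0.38 and 0.52. Of the 8 hosts tested, Wdr82 and Spaca6 had groups that did not overlap, as 39.9% of all genes did. In edgeR 0 of the 8 passed the threshold, with Lncppara (let-7b and let-7c-2) at a log2 fold change of -0.55 and Mir99ahg (let-7c-1) at -0.19.

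A list of 20 genes held those that process or degrade let-7 precursors and the Argonaute and Tnrc6 genes, which work with mature microRNAs. Of the 20, 0 passed the threshold in edgeR, as did 0 of all genes tested. At an unadjusted p under 0.05 there were 0 of the 20, where 8.51% of all genes were, and 8 were fitted higher and 12 lower. Their median log2 fold change was -0.13, against -0.016 over all genes tested, and it was -0.46 without ATO-1 and 0.14 without ATO-2. Drosha, the nuclear nuclease that starts microRNA processing, had the lowest value, with 19.26 and 12.11 FPKM in PBS-1 and PBS-2 and 8.44 and 4.92 in ATO-1 and ATO-2 (log2 fold change -0.99 ± 0.44, SE). Ago4, an Argonaute protein, had the highest, with 1.45 and 1.16 FPKM in PBS against 3.50 and 1.89 in ATO sarcomas (1.28 ± 0.51, SE). The most abundant were the Drosha cofactors Ddx5 (log2 fold change 0.00) and Ddx17 (-0.15) and the RNA-binding protein Khsrp (-0.62). Matches to the let-7 seed were present in 5 of the 20.

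The 30 further genes known as let-7 targets had fold changes on both sides of 0. In edgeR 0 of 30 passed the threshold, 15 were fitted higher and 15 lower, and 20 of the 30 had a seed match. Their median log2 fold change was 0.0083, and it was -0.32 without ATO-1 and -0.18 without PBS-1. At an unadjusted p under 0.05 there were 5 lower and 2 higher, where 3.07% and 5.44% of all genes were. Dusp9, a phosphatase of MAP kinases, had the lowest value, with 2.57 and 2.98 FPKM in PBS-1 and PBS-2 and 0.26 and 0.19 in ATO-1 and ATO-2 (log2 fold change -3.33 ± 0.68, SE). Acvr1c, an activin receptor abundant in adipocytes, had the highest, with 0.01 and 0.08 FPKM in PBS against 0.74 and 2.30 in ATO sarcomas (5.50 ± 1.46, SE). DESeq2 called these 2 of the 30 genes, where it called 4.12% of all genes. Dusp9 and Acvr1c each had groups that did not overlap, as 39.9% of all genes tested did. Adipocyte markers were higher in the ATO sarcomas, as was Acvr1c, and the part of adipose tissue in its level was not tested. Of the most abundant, the matrix protein Thbs1 had a log2 fold change of 0.94 ± 0.64 (SE), Zfp36l1, which destabilises mRNAs, -0.37 ± 0.55 and Ccnd1 (cyclin D1) -1.27 ± 0.78. Ccnd1 was at 37.33 and 62.70 FPKM in PBS and at 30.33 and 6.16 in ATO sarcomas.

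Over all genes tested, leaving out the 9 described, the number of let-7 matches went with little difference in fold change. The median log2 fold change was -0.018 for 12820 genes with 0 matches, -0.012 for 1308 genes with 1 match and 0.028 for 183 genes with 2 or more. The interquartile range of the last group was -0.50 to 0.56. For the 27 genes with 2 or more 8-mers the median was 0.12, and with the 3′ UTR of the longest coding sequence the median for 155 genes with 2 or more matches was -0.011. No test was made of these medians.

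The 18 genes linked to Hmga2 or the Igf2bp proteins, as targets, partners or bound mRNAs, had 0 calls in edgeR, with 6 fitted higher, 12 lower and a median log2 fold change of -0.56. Cdkn2a, the tumour suppressor locus that Hmga2 is known to repress in stem cells, had 129.12 and 75.16 FPKM in PBS-1 and PBS-2 and 19.29 and 1.17 in ATO-1 and ATO-2 (log2 fold change -3.17 ± 1.26, SE). Both ATO sarcomas were below both PBS sarcomas for Cdkn2a, as for 20.2% of all genes tested, and its relation to Hmga2 was not tested. Igf2, the fetal growth factor, was low, at 0.03, 0.50, 2.68 and 0.19 FPKM in PBS-1, PBS-2, ATO-1 and ATO-2. It was highest in ATO-1, with overlapping groups, and had the highest fitted log2 fold change of the list (2.60 ± 1.71, SE). H19, the imprinted neighbour of Igf2 and an RNA that can bind let-7, was at 59.31, 31.27, 446.29 and 44.49 FPKM, with ATO-1 apart from the other 3 tumours. Ctnnb1 (beta-catenin) had 117.80 and 189.99 FPKM in PBS against 83.86 and 83.35 in ATO sarcomas. Without PBS-1 the median of the list was 0.21.

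Of the 12 other oncofetal genes, 11 were tested and 0 passed in edgeR, with 3 fitted higher, 8 lower and a median log2 fold change of -1.42. Mest, an imprinted gene of the embryonic mesoderm, had the lowest value, with 43.22 and 147.54 FPKM in PBS-1 and PBS-2 and 2.17 and 4.02 in ATO-1 and ATO-2 (log2 fold change -4.62 ± 0.91, SE). DESeq2 and edgeR without the filter called only Mest of this list, where they called 4.12% and 1.75% of all genes. Cd24a, a surface glycoprotein, and Tfrc, the transferrin receptor, were highest in ATO-1, at 246.66 and 106.28 FPKM, against at most 80.66 and 16.10 FPKM in the other tumours. The median of the list was -0.58 without PBS-2 and -0.22 with the replicate number as a block.

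Of 12 proliferation genes 0 passed in edgeR, with 1 fitted higher (Mki67) and 11 lower. In 4 of the 12 both ATO sarcomas were below both PBS sarcomas in normalised CPM and in 0 both were above, where 20.2% and 19.7% of all genes tested were. Their median log2 fold change was -0.91, and it was -0.16 without ATO-2 and -2.61 without ATO-1. Mki67 was at 16.33 and 11.86 FPKM in PBS-1 and PBS-2, at 45.37 in ATO-1 and at 1.96 in ATO-2. Top2a was at 22.29, 15.26, 14.62 and 1.61 FPKM in the same order, Bub1 at 8.54, 5.09, 3.29 and 0.51, and Pcna at 44.37, 37.33, 46.53 and 22.09. ATO-2 was the lowest tumour for each of these 4 genes, and the groups did not overlap in FPKM for Top2a and Bub1. The part of proliferation in the levels of the oncofetal genes was not tested.

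**Figure D5:**
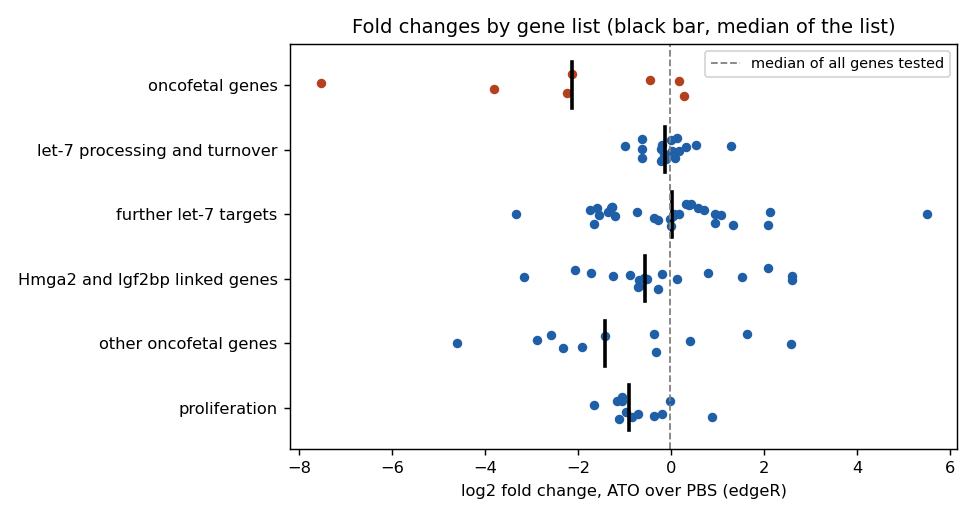
Fitted log2 fold changes, ATO over PBS (x axis), of the tested genes of 6 lists (y axis), with 1 point per gene shifted vertically at random, a black bar at the median of each list and a dashed line at the median of all genes tested (-0.016). The 7 oncofetal genes tested reach down to -7.55, while the further let-7 targets spread on both sides of 0 with a median of 0.0083.

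The summed markers of skeletal muscle and adipocytes were higher in both ATO sarcomas, and those of the other cell types overlapped between the groups. The summed level of 8 skeletal muscle markers was 6.85 to 123 FPKM in PBS and 1006 to 13947 FPKM in ATO sarcomas. For 8 of 8 both ATO sarcomas were above both PBS sarcomas, as for 19.7% of all genes tested. The 5 adipocyte markers summed to 12.7 to 66.2 FPKM in PBS and 229 to 1369 FPKM in ATO sarcomas. Of these, 5 of 5 were higher in both ATO sarcomas, against the same 19.7% of all genes, and Lep was at 0 in both PBS sarcomas. The 10 mesenchyme markers were present in both groups. Their summed level overlapped, at 1816 to 5554 FPKM in PBS and 1404 to 4162 FPKM in ATO sarcomas. Osteoblast markers summed to 6.38 to 13.0 FPKM in PBS and 4.93 to 488 FPKM in ATO sarcomas, and chondrocyte markers to 5.55 to 7.32 and 5.93 to 46.4 FPKM. For both lists the upper ATO value was that of ATO-1. The osteoblast gene Ibsp was at 0.30, 0.35, 290.95 and 0.29 FPKM in PBS-1, PBS-2, ATO-1 and ATO-2. In the same order, the chondrocyte gene Col2a1 was at 0.03, 0.25, 21.28 and 0.05 FPKM. Sox9, of the same list, was at 5.25, 4.43, 1.84 and 0.97 FPKM. It was lower in both ATO sarcomas, as were 20.2% of all genes tested. Of the 4 chondrocyte markers tested, 3 were fitted higher in ATO sarcomas and 1, Sox9, lower. Endothelial (123 to 1065 and 93.5 to 182 FPKM), leukocyte (253 to 1732 and 554 to 603), erythroid (298 to 19843 and 1128 to 11011) and epithelial markers (1.05 to 7.77 and 5.54 to 20.2) overlapped. The part of muscle and adipose tissue, and of tumour type, in the levels of the oncofetal genes was not tested. The tested mesenchyme markers had log2 fold changes from -2.10 to 0.97, with a median of -1.10. Of 10 pluripotency and germ cell genes, summing to 0.55 to 1.88 FPKM in PBS and 1.09 to 1.31 FPKM in ATO sarcomas, Zfp42 and Utf1 were at 0 in all 4 tumours, and Pou5f1 was at 0 in both ATO sarcomas.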

How the data were processed

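RNA-seq was performed on 4 sarcomas (2 ATO, 2 PBS, grouped by the labels). Per the labels and methods, the authors trimmed reads with cutadapt 1.9.1, checked them with FastQC 0.10.1, aligned them to GRCm38 with HISAT2 2.0.1 and deposited raw read counts per gene from HTSeq. The authors also deposited FPKM, which equalled the count divided by gene size and total count to within 0.005. The strand setting is not given in the sources used here. Deposited gene positions differ from GENCODE M21 (GRCm38), so the printed positions were taken from M21 by gene identifier. The neighbours of Hmga2, their distances and the overlapping genes were found with the deposited positions. The 2639 rows without a symbol took up to 0.171% of a tumour's counts.

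Counts were fitted in R 4.3.3 by edgeR 4.0.16, keeping genes by filterByExpr and scaling by TMM (1.09 for PBS-1, 1.11 for PBS-2, 1.01 for ATO-1, 0.822 for ATO-2), with its defaults (trended dispersion, quasi-likelihood test, Benjamini-Hochberg adjustment, threshold 0.05). Each SE is the absolute log2 fold change divided by the square root of the quasi-likelihood F statistic. The code was tested on simulated data. An exact permutation test of 2 against 2 cannot go below p = 0.333 (two-sided) and was not used. Total counts were 17465090, 17971675, 18134000 and 15259695 in that order. A replicate block, DESeq2 1.42.0, median-of-ratios size factors, unscaled totals, the unfiltered table, genes averaging 1 FPKM or more, limma 3.58.1 on log2(FPKM + 1) and log2(FPKM + 0.1), removal of mitochondrial genes, and omission of each sarcoma were tried as alternatives. Summing Hmga1 and Hmga1b was added after seeing the data.

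The 9 genes and all lists were chosen with earlier results of these data known. The text names the 9 genes, their family rows, let-7 hairpin and host genes, and the 5 genes most like Hmga2. Lists other than the cell type and pluripotency markers have their 3 genes of highest mean FPKM and their lowest and highest fold changes named. Neighbours of Hmga2, overlapping genes and single cell type or pluripotency marker genes were named after their values were seen. Seed matches were counted in Python 3.11.15 on the mRNA strand of M21 3′ UTRs, and microRNA sequences are from RefSeq.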

Additional observations from a re-analysis of the deposited data

How the results depend on the processing

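With edgeR 0 of 17188 genes passed the threshold. DESeq2 called 753 of 18295 (4.12%) and the fit without a filter on low counts 541 of 30859 (1.75%). The same 2 settings called 2 and 1 of the 30 further let-7 targets and 1 and 1 of the 12 other oncofetal genes, beside these shares of all genes. All other settings that kept the 4 sarcomas called 0 of these lists. The cause was not tested. The log2 fold change of Hmga2 was between -8.15 and -4.42 over 14 fits, the value nearest to 0 being limma on log2(FPKM + 1), whose pseudocount lowers the change of genes near 0. That of Hmga1 was between -2.77 and -1.44, of Igf2bp2 between -5.47 and -2.86, of Igf2bp3 between -2.89 and -0.37 and of Arid3a between -0.73 and -0.16, all negative, while Lin28a (-1.02 to 2.08) and Arid3b (-0.24 to 0.72) changed sign. The values of Igf2bp1 rest on ATO-1. Whether the replicate numbers in the labels stand for pairs could not be judged. Over the genes tested, the deviations of PBS-1 and ATO-1 from their group means had a correlation of 5.04e-05. With 2 sarcomas per group, PBS-2 and ATO-2 give the same value by construction. With the replicate block 0 genes passed the threshold. At these depths a gene under 3 counts, such as Lin28b, could not be compared, and with 2 tumours per group the spread within a group limits each fold change.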

Other observations

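A few genes had more let-7 seed matches than any of the 9 genes described. They were chosen after the counts of matches were seen, and 3 of them are given here as values. Nr6a1, an orphan nuclear receptor of the embryo, had 8 matches and was at 0.83, 1.15, 0.99 and 0.65 FPKM in PBS-1, PBS-2, ATO-1 and ATO-2 (log2 fold change -0.02 ± 0.53, SE). Nudt12, a peroxisomal hydrolase, had 7 matches and was at 0.68, 0.76, 1.47 and 8.99 FPKM (3.25 ± 1.08, SE), with both ATO sarcomas above both PBS sarcomas. Trim6 had 6 matches and was at 0.39, 1.23, 1.01 and 0.28 FPKM (-0.11 ± 0.95, SE). In edgeR 0 of these 3 genes passed the threshold, as did 0 of all genes tested.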
